A study of Mus musculus with 11 samples.

Results

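The 10 genes described here, Gadd45a, Bcl6, Trib1, Cat, Sod2, Ccng2, Cdkn1b, Txnip, Irs2 and Fbxo32, are known targets that FoxO transcription factors switch on. They were found by symbol in the deposited count tables, which list 55421 genes, and all 10 were present. FoxO factors are forkhead proteins at the end of the phosphoinositide 3-kinase and Akt pathway. When a growth factor receptor is active, Akt phosphorylates FoxO, and 14-3-3 proteins then hold it in the cytoplasm. When Akt activity is low, FoxO enters the nucleus and induces genes of growth arrest, antioxidant defence, protein breakdown and insulin signalling. Tie2, the angiopoietin receptor encoded by Tek, is best known for this route in endothelial cells, where it activates Akt and restrains FoxO1. FoxO activity is set mainly by the protein's phosphorylation and location, so the level of its target transcripts is one common way to look at it.

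The libraries hold ribosome-bound RNA pulled down from whole mouse cerebellum on postnatal day 56. The 7 controls had the genotype Pcp2Cre;Rpl22HA/HA, in which Cre under the Pcp2 promoter turns on an HA-tagged ribosomal protein Rpl22 in Purkinje cells, the output neurons of the cerebellar cortex. The 4 animals labelled KO had the genotype Pcp2Cre;Tie2flox/flox;Rpl22HA/HA, so that the same Cre also acts on floxed Tie2, and the controls carried no floxed allele. The comparison asks how the RNA on Purkinje cell ribosomes differs when these cells lack Tie2. By the labels there were 3 batches. The first held knockouts F371 and M374 with control M379, the second M390 with control M386, and the third M456 with 5 controls. Each library carries its own animal tag, by which it is named here, and nothing further says how the animals were kept or paired, so p-values measure the spread between these libraries.

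Knockout libraries held 2583227 to 4199299 reads in genes and control libraries 4087197 to 5142671. On the log2 scale, with batch held fixed, knockout totals differed from control totals by -0.47 (exact permutation test, two-sided p = 0.0278, the smallest that 36 arrangements allow). Tek had 0 to 14 reads in the knockouts and 0 to 40 in the controls, too few and too variable to check the labels. Knockout here therefore means labelled as such. The 16 markers of Purkinje cells summed to 6212 to 8447 CPM (read counts scaled to each library's normalized total) in the knockouts and 6341 to 7378 CPM in the controls, and none was at 0 throughout. All markers of other cells that passed an adjusted p under 0.05 (edgeR) were higher in the knockouts. Of all tested genes 10.9% were higher and 13.4% lower by that rule, and the endothelial and mural list was near the first share. The sums of the 2 groups overlapped for every list. For granule cells, F371 (713 CPM) and M390 (594 CPM) lay within the control range. The 13 granule cell markers summed to 594 to 1703 CPM in the knockouts and 448 to 914 CPM in the controls, with 8 higher and 0 lower, and the 13 markers of Bergmann glia and astrocytes to 490 to 1391 and 396 to 660 CPM, also with 8 higher and 0 lower. The 13 oligodendrocyte markers spanned 340 to 1020 CPM against 294 to 754 CPM, with 3 of the 12 tested higher. A marker score, the mean log2 CPM of Purkinje markers minus that of these 3 lists, differed by -0.81, knockout minus control, with batch held fixed (exact permutation test, two-sided p = 0.0278, again the smallest possible). Microglial markers spanned 25.2 to 130 CPM in knockouts and 37.4 to 69.4 in controls (3 of 9 tested higher), endothelial and mural markers 31.9 to 142 and 22.4 to 158 (1 of 10), markers of interneurons and unipolar brush cells 62.6 to 157 and 31.6 to 71.7 (3 of 6), and choroid plexus markers 183 to 396 and 216 to 329 (1 of 4), with 0 lower in each. Of the Purkinje markers 4 were higher and 2 lower. The tag is turned on in Purkinje cells, yet reads of other cells' markers were present in the pull-downs. How much of each member's reads came from Purkinje cells and how much from other cells was not tested. Because the tissue is mixed, the number of cells of a type and the RNA per cell cannot be told apart either.

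The DNA just upstream of these genes shows where a forkhead protein could bind. RefSeq windows of GRCm38.p6 were found for 8 of the 10 genes, not for Trib1 and Fbxo32. The 250 bases before each start site were searched on both strands for GTAAACA, the core of the classical FoxO element, and for CAAAACA, a core of the insulin response element. The motifs do not overlap each other. GTAAACA occurred in 3.17% and CAAAACA in 5.56% of all 32851 such windows, and either one in 8.51%. Among the members, Txnip held GTAAACA and Ccng2 and Irs2 held CAAAACA. Neither string was in the windows of Gadd45a, Bcl6 (both of its windows), Cat, Sod2 or Cdkn1b, which says only that these letters are absent from these bases. The sequences below show the 3 windows with a match, followed by those of Gadd45a and Cat, which differed in opposite directions. They run 5′ to 3′ on the gene's strand, and capitals mark the matches. The match began 121 bases before the start site in Txnip (chr3:96557707-96557956, plus strand), 16 before it in Ccng2 (chr5:93267323-93267572, plus strand) and 37 before it in Irs2 (chr8:11008930-11009179, minus strand, where the motif reads on the opposite strand). The windows of Gadd45a and Cat are chr6:67037408-67037657 and chr2:103485154-103485403, both on the minus strand.
Txnip: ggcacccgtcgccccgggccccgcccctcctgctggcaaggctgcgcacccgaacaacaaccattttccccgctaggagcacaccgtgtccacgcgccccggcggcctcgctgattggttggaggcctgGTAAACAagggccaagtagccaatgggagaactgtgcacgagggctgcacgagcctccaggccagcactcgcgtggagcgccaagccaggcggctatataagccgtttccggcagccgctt
Ccng2: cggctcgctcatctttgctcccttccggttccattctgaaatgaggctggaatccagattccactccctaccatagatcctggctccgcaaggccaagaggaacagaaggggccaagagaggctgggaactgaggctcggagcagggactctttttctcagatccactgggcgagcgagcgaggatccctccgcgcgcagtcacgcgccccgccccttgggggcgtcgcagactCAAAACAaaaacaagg
Irs2: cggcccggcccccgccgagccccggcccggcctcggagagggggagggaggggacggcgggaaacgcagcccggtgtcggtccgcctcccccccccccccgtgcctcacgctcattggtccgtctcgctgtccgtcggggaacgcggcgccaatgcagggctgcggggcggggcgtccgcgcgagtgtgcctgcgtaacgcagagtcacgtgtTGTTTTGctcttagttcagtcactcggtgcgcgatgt
Gadd45a: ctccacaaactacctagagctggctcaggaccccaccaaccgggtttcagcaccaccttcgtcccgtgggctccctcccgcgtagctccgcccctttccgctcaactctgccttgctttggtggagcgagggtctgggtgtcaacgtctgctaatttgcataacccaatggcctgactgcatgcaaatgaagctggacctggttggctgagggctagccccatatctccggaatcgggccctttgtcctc
Cat: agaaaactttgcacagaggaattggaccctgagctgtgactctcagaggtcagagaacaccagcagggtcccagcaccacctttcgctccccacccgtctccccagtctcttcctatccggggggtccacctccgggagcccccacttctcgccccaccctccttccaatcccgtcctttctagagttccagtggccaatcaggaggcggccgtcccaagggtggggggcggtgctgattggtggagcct

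Of the 10 genes, 9 had enough reads to be tested and Fbxo32 did not. In the knockouts 4 of the 9 were higher, namely Txnip, Gadd45a, Bcl6 and Trib1, and 1 was lower, Cat, at an adjusted p under 0.05 (edgeR quasi-likelihood test, batch in the model). Ccng2, Cdkn1b, Sod2 and Irs2 did not pass. Over all 13375 genes tested the same rule called 24.4%, with 10.9% higher and 13.4% lower. All knockouts were above all controls for 2 of the 9 genes and below them for 0, against 6.2% and 6.77% of all tested genes. The median fitted log2 fold change was 0.49 over the 9 genes and -0.02 over all tested genes. The 10 genes were listed with earlier results of these data known, so this count is not independent evidence of their direction.

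**Figure D1:**
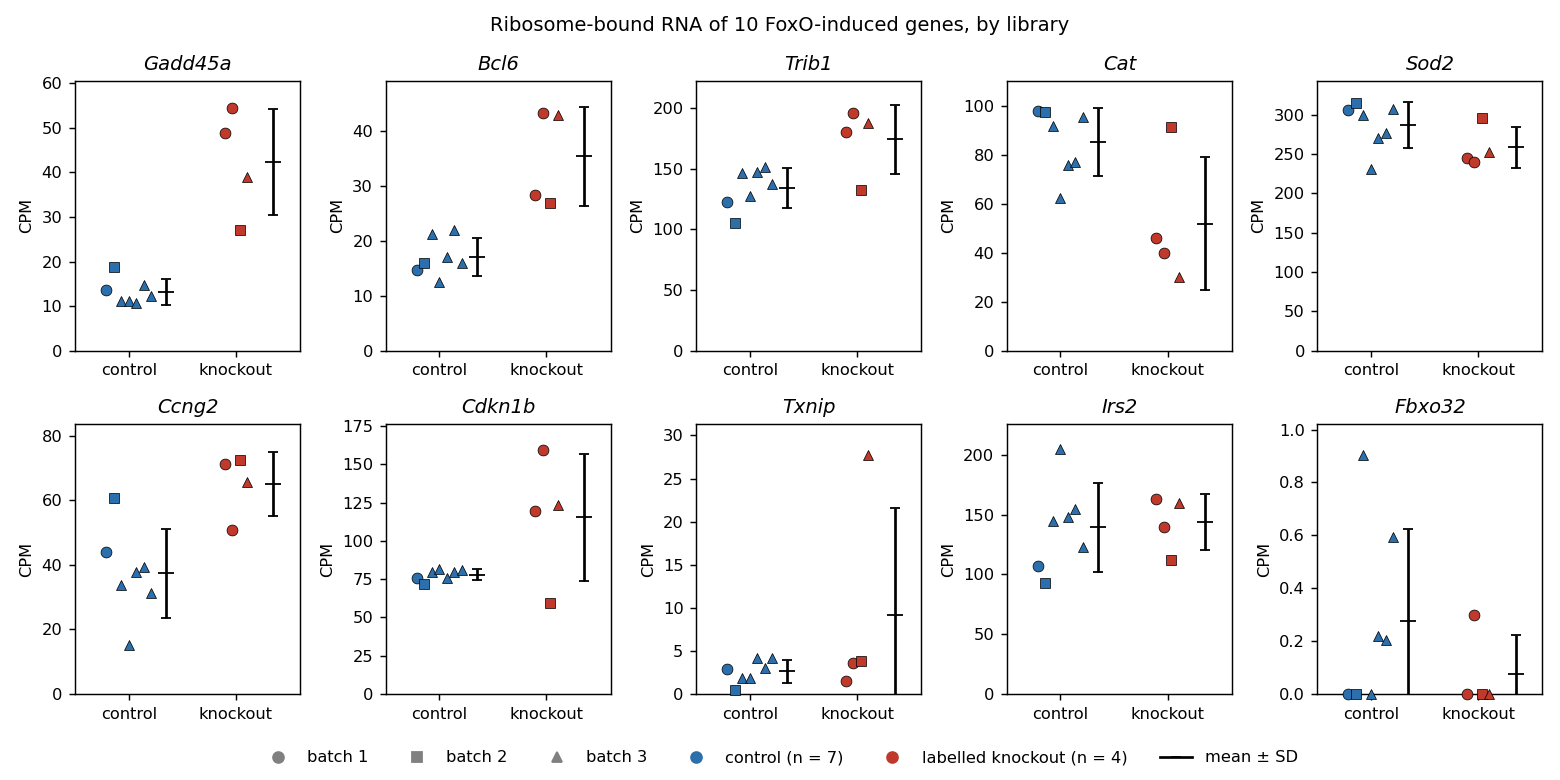
CPM of each of the 10 genes (y axis, from 0) in every library, controls (blue, n = 7) beside labelled knockouts (red, n = 4), with batches as circles, squares and triangles and the mean ± SD in black (bars of Txnip and Fbxo32 are cut at 0). For Gadd45a and Bcl6 all 4 knockouts lie above all 7 controls, and for Txnip only M456 does.

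**Figure D2:**
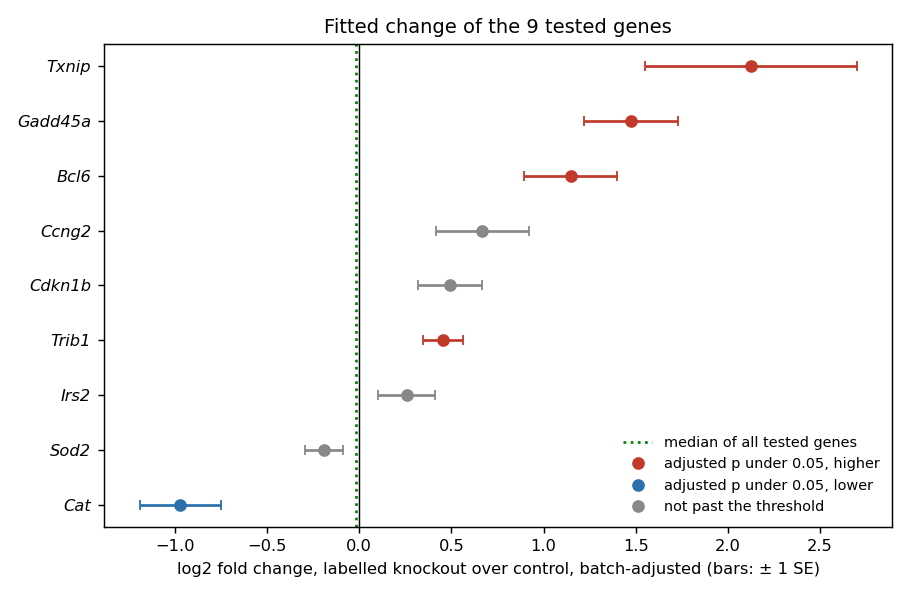
Fitted log2 fold change, knockout over control (x axis), for the 9 tested genes, with bars of 1 SE. Red points rose and blue fell at an adjusted p under 0.05, grey points did not pass, and the dotted line is the median of all tested genes at -0.02.

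Of the 3 genes of growth arrest and DNA damage, Gadd45a rose and Cdkn1b and Ccng2 did not pass. Gadd45a, a small stress protein that binds PCNA and p21 and takes part in cell cycle arrest and DNA repair, stood at 48.8 CPM in F371, 54.3 in M374, 27.2 in M390 and 39.0 in M456. The 7 controls ran from 10.7 CPM to 18.7 CPM, with a median of 12.3. Every knockout was above every control. The means were 42.3 CPM ± 11.9 and 13.2 CPM ± 2.86 (SD, n = 4 and 7), and the fitted rise was 1.47 ± 0.26 on the log2 scale (SE), or 2.78-fold (edgeR adjusted p = 0.00268). Within batches the log2 ratios were 1.87, 0.53 and 1.66. Gadd45a (ENSMUSG00000036390) lies at 67035096 to 67037407 on chromosome 6 and overlaps the long noncoding gene E230016M11Rik. The latter had 17 to 52 reads per library against 48 to 183 for Gadd45a, and whether the counting used strand is not given in the sources used here. Its relatives Gadd45b and Gadd45g did not pass, with log2 fold changes of -0.37 ± 0.64 and 0.25 ± 0.20 (SE, edgeR adjusted p = 0.71 and 0.38). Whether Gadd45a differed from these relatives was not tested.

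Cdkn1b, which encodes the cyclin-dependent kinase inhibitor p27, was very even in the controls, at 71.7 to 81.7 CPM with a median of 79.8. In the knockouts it was spread out, at 119 CPM in F371, 160 in M374, 59.3 in M390 and 123 in M456, so that 3 knockouts were above all controls and M390 was below all of them. The coefficient of variation was 4.6% in the controls and 36% in the knockouts. The fitted log2 fold change was 0.49 ± 0.17 (SE), with a 95% interval of 0.08 to 0.90, and the test over all genes was just missed (edgeR adjusted p = 0.0514). The within-batch log2 ratios were 0.87, -0.27 and 0.63. Without batch 2 the value was 0.77 (edgeR adjusted p = 0.00152), and with the marker score as a covariate it was 0.01 (edgeR adjusted p = 0.99).

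Ccng2, which encodes the unconventional cyclin G2, a brake on cell cycle progression, was at 71.4 CPM in F371, 50.8 in M374, 72.5 in M390 and 65.9 in M456. Controls spanned 15.1 to 60.8 CPM with a median of 37.8, so that 3 knockouts were above all controls. The highest control was M386 of batch 2 and the lowest M476. The fitted log2 fold change of 0.67 ± 0.25 (SE, 95% interval 0.07 to 1.26) did not pass (edgeR adjusted p = 0.0643). It passed in 7 of 22 other settings, among them the one without M476 (log2 fold change 0.61, edgeR adjusted p = 0.0199). Also among the 7 were those without M390, without M386 and without batch 2 (log2 fold change 0.83 in each). These make the same genotype comparison, because M390 and M386 are the only libraries of batch 2. Without M456 the log2 fold change was 0.37 (edgeR adjusted p = 0.53).

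Regulators of transcription and signalling came next. Bcl6 encodes a zinc finger repressor, best known from germinal centre B cells and also active in neurogenesis. It stood at 28.4 CPM in F371, 43.4 in M374, 26.9 in M390 and 43.0 in M456, and in the controls at 12.6 to 22.1 CPM with a median of 16.1. All 4 knockouts again exceeded all 7 controls. The mean was 35.4 CPM ± 8.95 against 17.1 CPM ± 3.43 (SD, n = 4 and 7), and the fitted rise was 1.15 ± 0.25 on the log2 scale (SE), or 2.21-fold (edgeR adjusted p = 0.00624). Batch by batch the log2 ratio was 1.26, 0.74 and 1.25. The gene (ENSMUSG00000022508) spans 23965050 to 23988866 on chromosome 16 and overlaps the noncoding gene Gm31527, which was not analysed here. Its close relative Bcl6b had a value of -0.02 ± 1.10 (SE, edgeR adjusted p = 0.99), an error too wide to give a direction.

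Trib1, a pseudokinase that brings proteins such as C/EBP alpha to the ubiquitin ligase COP1, showed a smaller shift. It was at 181 CPM in F371, 196 in M374, 132 in M390 and 188 in M456, against 105 to 152 CPM in the controls with a median of 137. M390 lay within the control range, but above its batch control M386, the lowest control at 105 CPM. The fitted rise was 0.45 ± 0.11 on the log2 scale (SE), or 1.37-fold (edgeR adjusted p = 0.0086), and the within-batch log2 ratios were 0.61, 0.32 and 0.40. The gene (ENSMUSG00000032501) lies at 59648654 to 59657099 on chromosome 15. Trib2 did not pass, at 0.23 ± 0.14 (SE, edgeR adjusted p = 0.25), and Trib3 had too few reads to be tested.

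Irs2, the adaptor that couples the insulin and IGF1 receptors to phosphoinositide 3-kinase, overlapped fully between the groups. Knockouts were at 163 CPM in F371, 140 in M374, 112 in M390 and 160 in M456, and controls at 92.9 to 205 CPM with a median of 145. The fitted log2 fold change was 0.26 ± 0.16 (SE), with a 95% interval of -0.11 to 0.62 (edgeR adjusted p = 0.23). Irs2 (ENSMUSG00000038894) overlaps the noncoding gene 9530052E02Rik, which had 0 to 22 reads per library against at least 398 for Irs2. Its paralog Irs1, on the other hand, fell by 1.55 ± 0.49 (log2, SE), being at 14.0 CPM ± 2.73 in the 7 controls and at 4.70 CPM ± 3.42 (SD) in the 4 knockouts (edgeR adjusted p = 0.0327). Whether the paralogs differed from each other was not tested.

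Of the antioxidant enzymes, catalase went down. Cat encodes the peroxisomal enzyme that breaks hydrogen peroxide into water and oxygen. It was at 46.1 CPM in F371, 40.1 in M374, 91.4 in M390 and 30.1 in M456, while the controls ran from 62.3 to 98.3 CPM with a median of 92.0. Thus 3 knockouts were below all controls and M390 was within their range. Cat fell by 0.97 ± 0.22 on the log2 scale (SE), which leaves 0.511 of the control level (edgeR adjusted p = 0.00732). Within batches the log2 ratios were -1.18, -0.10 and -1.40, so the fall rests on batches 1 and 3. Without the batch term the value was -0.71 (edgeR adjusted p = 0.0501). The gene (ENSMUSG00000027187) lies at 103453904 to 103485153 on chromosome 2. It was the only called member with a negative sign.

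Sod2, the manganese superoxide dismutase of mitochondria and a textbook FoxO3 target, was at 245 CPM in F371, 240 in M374, 296 in M390 and 253 in M456. The controls spanned 231 to 315 CPM with a median of 299, and all 4 knockouts lay within that range. The fitted log2 fold change was -0.19 ± 0.10 (SE), with a 95% interval of -0.43 to 0.05 (edgeR adjusted p = 0.18). It was below 0 in all 22 other settings and passed in 0 of them, including DESeq2 and limma-voom, and its unadjusted p in the chosen fit was 0.0792.

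Txnip, the thioredoxin-binding arrestin that limits glucose uptake and holds thioredoxin inactive, had the largest fitted change and the weakest base. It was at 1.45 CPM in F371, 3.56 in M374, 3.78 in M390 and 27.7 in M456, and in the controls at 0.462 to 4.17 CPM with a median of 2.89. In reads, M456 had 69 and the other 10 libraries 2 to 21, so 1 knockout was above the controls and 3 were among them. Txnip rose by 2.12 ± 0.57 on the log2 scale (SE, edgeR adjusted p = 0.0162), whereas the value without M456 was 0.88 (edgeR adjusted p = 0.56). The within-batch log2 ratios were -0.17, 2.15 and 3.01, the second from 16 reads in M390 against 2 in M386. M456 was also the library with the fewest reads, 2583227. It had the highest marker sums of granule cells (1703 CPM), Purkinje cells (8447 CPM), and Bergmann glia and astrocytes (1391 CPM). The same held for oligodendrocytes (1020 CPM), interneurons and unipolar brush cells (157 CPM) and choroid plexus (396 CPM). It did not hold for microglia or for endothelial and mural cells. With the marker score as a covariate the log2 fold change of Txnip was 2.20 (edgeR adjusted p = 0.53). Txnip overlaps the antisense gene Gm15441, which had 0 to 2 reads per library. Of the other alpha-arrestins, Arrdc4, which like Txnip responds to glucose, fell by 0.77 ± 0.24 on the log2 scale (SE, edgeR adjusted p = 0.0317). Arrdc3 (0.45 ± 0.21) and Arrdc1 (-0.25 ± 0.39) did not pass (SE, edgeR adjusted p = 0.13 and 0.67). Arrdc2 and Arrdc5 had too few reads to be tested.

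Fbxo32 encodes atrogin-1, the muscle ubiquitin ligase subunit of FoxO-driven atrophy. It had 9 reads in the 7 controls together, spread over 4 libraries of batch 3, and 1 read in the 4 knockouts, in M374 of batch 1. M456, the only knockout of batch 3, had 0 reads, and so had M379, the only control of batch 1. The ratio that follows takes no account of batch. Pooled over libraries and batches the ratio of control to knockout was 3.84, with a 95% counting interval of 0.532 to 168, so no direction was detectable at this depth. In muscle its partner in atrophy is Trim63, which had 1 read in all 11 libraries.

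The size of the differences varied by batch in a common way. For 7 of the 9 tested genes the knockout to control ratio was smallest in size in batch 2, the exceptions being Txnip and Irs2, and this was so for 57.5% of all tested genes. The sign was the same in all 3 batches for 7 of the 9, the exceptions being Cdkn1b and Txnip, against 48.5% of all tested genes. Among called genes alone, the batch 2 ratio was smallest for 4 of the 5 members and 85.5% of all called genes, and the sign was the same for 4 of the 5 and 87.7%. On that like-for-like basis the members were near the background. Batch 2 holds M390 and M386, 1 library each, with totals of 4199299 and 4342158 reads and marker scores of 3.74 and 3.98. In batch 1 the scores were 3.18 and 2.42 against 3.91, and in batch 3 2.17 against 2.81 to 3.35. Depth and this score differed least between the genotypes in batch 2, although microglial markers there were at 130 CPM in M390 and 69.4 in M386. The part of depth and markers in the smaller ratios was not tested.

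**Figure D3:**
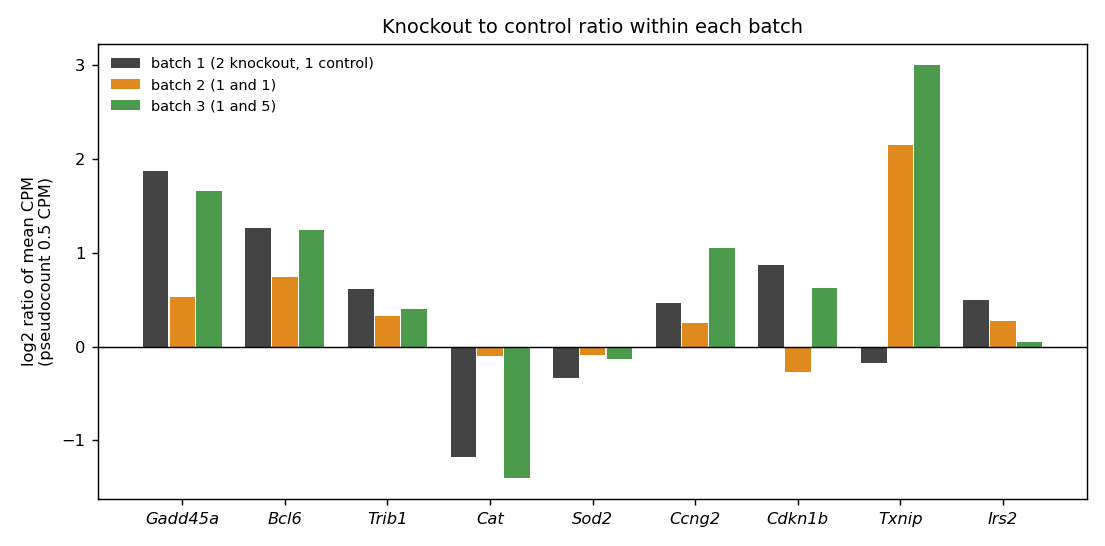
Log2 ratio of mean CPM, knockout over control, with 0.5 CPM added (y axis), for the 9 tested genes in each of the 3 batches. Cat is near 0 in batch 2 (-0.10) and at -1.18 and -1.40 in the others, and Txnip is below 0 in batch 1 only.

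All 5 calls were lost without M456 and with either of 2 covariates. M456 is the only knockout of batch 3, so with batch in the model leaving it out also takes the 5 controls of that batch out of the genotype comparison. In that fit none of the 9 genes passed, and 2.43% of all genes were called (edgeR, 4 of the 9 with an unadjusted p under 0.05). The log2 fold changes of Gadd45a, Bcl6 and Trib1 were still 1.29, 1.05 and 0.49. Leaving out M379, the only control of batch 1, likewise takes out knockouts F371 and M374. Gadd45a and Txnip then passed and Bcl6, Trib1 and Cat did not (edgeR adjusted p = 0.0504, 0.067 and 0.0931). Whether the lost calls came from these single libraries or from the smaller comparison was not tested. With the marker score as a covariate 0 of the 9 genes and 0 of all genes passed in edgeR, and 1 of the 9 had an unadjusted p under 0.05. The values were 1.11 for Gadd45a, 0.66 for Bcl6, 0.30 for Trib1 and -0.68 for Cat. With the log2 library total as a covariate 0 genes passed as well, with 3 of the 9 at an unadjusted p under 0.05. The values were then 1.18 for Gadd45a, 1.09 for Bcl6, 0.51 for Trib1, 1.29 for Txnip and -0.37 for Cat. Bcl6 and Trib1 were thus about as large as in the reported fit, while Txnip and Cat moved by more than 1.5 times. Score and total both moved with the genotype within batches, so their effects and that of the genotype cannot be told apart in these 11 libraries.

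**Figure D4:**
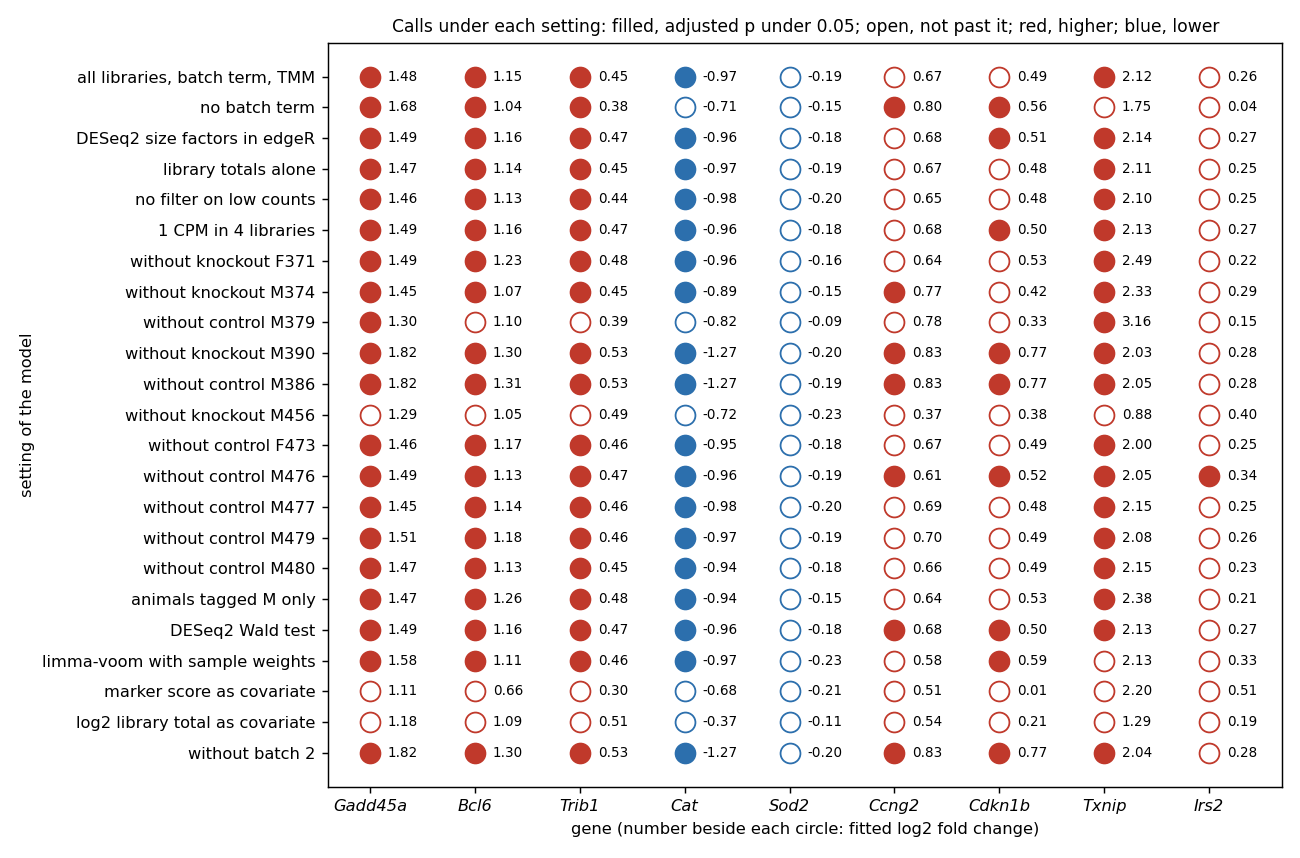
Calls for the 9 tested genes (columns) under the reported fit and 22 alternatives (rows), with the fitted log2 fold change beside each circle. Filled circles passed at an adjusted p under 0.05, red higher and blue lower, and each gene kept its sign in every setting shown.

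Of 27 other known FoxO-induced genes, 18 were tested, 2 rose and 1 fell, with a median log2 fold change of 0.06. Sesn3, a sestrin that restrains mTORC1, rose by 0.56 ± 0.14 from 121 CPM ± 15.9 to 182 CPM ± 19.7 (edgeR adjusted p = 0.0102), and Cdkn1a, which encodes the kinase inhibitor p21, by 0.73 ± 0.18 (edgeR adjusted p = 0.011). Prdx3, the mitochondrial peroxiredoxin, fell by 0.34 ± 0.11 (SE, edgeR adjusted p = 0.0314). Insr, Bcl2l11, Tsc22d3 and Sesn1, all classical FoxO targets, were picked after their values were seen as those nearest to 0, with log2 fold changes of 0.05, 0.06, 0.02 and 0.03, and did not pass. At 2 higher of 18 the share is near the 10.9% of all genes, and the 1 lower of 18 stands beside 13.4%.

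Among 36 FoxO factors and regulators, 33 were tested, 7 rose and 3 fell, with a median log2 fold change of 0.25, where 10.9% of all tested genes were higher and 13.4% lower. No FoxO gene passed. Foxo3, the most counted of them, averaged 107 CPM ± 23.9 in the 7 controls and 142 CPM ± 22.2 in the 4 knockouts (SD; log2 fold change 0.25 ± 0.18, edgeR adjusted p = 0.31). Foxo1 and Foxo4 had values of 0.50 ± 0.68 and 0.86 ± 0.74 (SE), and Foxo6, with 14 reads in all, was not tested. The smallest p-values belonged to Mapk8, which encodes the stress kinase JNK1 that can drive FoxO into the nucleus (0.78 ± 0.12, edgeR adjusted p = 0.00215), Pik3r1 (1.12 ± 0.21), Mtor (-0.80 ± 0.15) and Akt1 (-0.67 ± 0.13, SE). The remaining called genes were higher for Pik3ca (0.50), Sgk3 (1.36), Usp7 (0.39) and the 14-3-3 genes Ywhaq (0.51) and Ywhae (0.30). Pik3r2 was lower (-2.03). What these values mean for FoxO activity was not tested.

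Neighbouring pathways of the same functions gave mixed counts. Of 27 other antioxidant genes, all tested, 1 rose and 1 fell, at a median log2 fold change of 0.17. Both counts are below the shares of all tested genes, 10.9% higher and 13.4% lower. The riser was Gclc, the catalytic subunit of glutathione synthesis (0.42 ± 0.14, edgeR adjusted p = 0.0383), and the faller was Prdx3. Sod1, the cytosolic superoxide dismutase, was at 0.30 ± 0.12 and did not pass (edgeR adjusted p = 0.0804). Of 21 tested genes of cell cycle arrest and p53 signalling, 5 rose and 2 fell, beside 10.9% and 13.4% of all tested genes. Cdkn1a, described above, is 1 of the 5 and is also counted among the other FoxO-induced genes and the family relatives. Cdk4, a kinase that p21 and p27 can bind, fell by 0.97 ± 0.18 and Trp53 by 1.85 ± 0.39 on the log2 scale, while Ei24 rose by 0.58 ± 0.16 (SE, edgeR adjusted p = 0.00347, 0.00537 and 0.0171). The family relatives of the 10 genes, 15 tested, had 2 higher (Cdkn1a and the cyclin gene Ccni) and 2 lower (Arrdc4 and Irs1), near the same 10.9% and 13.4%. Their median log2 fold change was 0.24.

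The genes whose level followed each called member most closely over the 11 libraries, in log2 CPM with batch means removed, were found by Pearson r among genes of at least 5 CPM. These values describe the libraries, which share the genotype difference and the depth difference. For Gadd45a they were Atad2b (r = 0.991), Rap1a (0.982) and Srsf3 (0.981), and for Bcl6 Fam49b (0.977), Uxs1 (0.975) and Nucks1 (0.974). Trib1 was followed by Ino80d and Fam210a (both 0.982) and Gmcl1 (0.977). Cat was followed by Tmem129 and Gosr2 (both 0.995) and Cep72 (0.992), which all fell, by 1.27, 0.44 and 0.75 on the log2 scale (edgeR adjusted p = 0.00393, 0.0216 and 0.00494). For Txnip they were Zic4 (0.970), a zinc finger gene, Srrm4 (0.950) and Atg5 (0.944). Txnip was at 27.7 CPM in M456 and at 0.462 to 4.17 CPM in the other libraries. How far its r values rest on M456 was not tested. Srrm4 and Atg5 did not pass the genotype test.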

How the data were processed

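The tools and build, per the submitters' processing notes, were STAR (an aligner), HTSeq (a read counter) and GRCm38. The deposited values are whole-number read counts per gene, 1 file per library, with no normalization. Strand setting, counting options and versions: not given in the sources used here. In each file 5 HTSeq summary lines, 18.3% to 26.1% of all lines' reads, stayed out of totals and tests. No 2 libraries were alike within sampling noise (smallest chi-square per degree of freedom 2.46).

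Counts were tested with edgeR 4.0.16 (R 4.3.3): filterByExpr on the group left 13375 genes, scaled by TMM, and fitted by quasi-likelihood with genotype and batch terms. P-values are two-sided and Benjamini-Hochberg adjusted over all tested genes, threshold 0.05. CPM are TMM-scaled, group means are not batch-adjusted, and an SE is the log2 fold change over the root of its F statistic. With counts drawn for these 13375 genes and 100 changed at each fold, recovery was 50% at a 2-fold change and 75% at 4-fold, and 10 unchanged genes were called. The draw changed far fewer genes than the reported fit called, and its spread was fitted with batch alone. The recovery therefore need not hold for the reported fit. Intervals of log2 fold changes use 7 residual degrees of freedom, fewer than the moderated test uses, so they are wider than its p-values imply. Intervals on reads cover counting error only.

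The members, gene lists, tests and alternatives were chosen with earlier results of these data known. All members are named, with up to 4 called genes of smallest p per pathway list and the 3 genes most like each called member. Other relatives, FoxO genes, FoxO regulators and FoxO targets named in the text lie outside that rule and were picked after their values were seen. Marker lists are given by their sums and counts. Alternatives included DESeq2 1.42.0 and limma 3.58.1. Positions and promoter windows are RefSeq's, GRCm38.p6, matched by symbol. Lengths of transcripts were not used, so levels are not compared between genes.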

Additional observations from a re-analysis of the deposited data

How the results depend on the processing

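Of the 22 alternatives, most changed 1 choice, while DESeq2 and limma-voom also changed the filter, scaling or weights, and leaving out batch 2 or the animals without an M tag removed 2 libraries each. No log2 fold change of the 9 tested genes changed sign. Against 4 higher and 1 lower of the 9, and 3257 of all genes, the counts were 0, 0 and 0 with the marker score as a covariate and 0, 0 and 0 with the log2 library total (edgeR, 1400 and 1841 of all genes with an unadjusted p under 0.05). Without the batch term 0 were lower and 5 higher: Ccng2 and Cdkn1b were added, and Txnip (1.75, adjusted p = 0.0789) and Cat were lost. Leaving out 1 library at a time gave 0 to 7 higher, 0 to 1 lower and 335 to 4649 of all genes. The low ends came without M456 (0, 0 and 335), and without M379 the counts were 2, 0 and 522. With batch in the model, leaving out the only knockout or the only control of a batch removes that whole batch from the genotype comparison. This holds for M456, M379, M390 and M386, so the settings without M390, without M386 and without batch 2 make the same comparison. The 7 came without control M476, where Ccng2, Cdkn1b and Irs2 also passed. Without batch 2, 6 were higher, and DESeq2 gave 6 as well, each with Ccng2 and Cdkn1b added. Limma-voom gave 4 higher, with Cdkn1b and without Txnip (adjusted p = 0.0552). Other normalizations and filters gave 4 or 5. A pseudocount of 2 CPM moved the batch 2 ratio of Txnip from 2.15 to 1.23. The cause of these changes was not tested. Depth limits Txnip, with 2 to 69 reads per library, and Fbxo32, with 0 to 4. No paired analysis was possible because the animal tags pair no libraries across genotypes. Batch is a term of the model instead.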

Other observations

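Klf2, a flow-sensitive transcription factor gene of endothelium that FoxO can induce, was left out of the tests by the filter on low counts and was picked here after its values were seen. It had 46 reads in the 4 knockouts and 10 in the 7 controls. The knockouts stood at 7.26 CPM in F371, 4.16 in M374, 0.709 in M390 and 1.61 in M456, and the controls at 0.204 to 0.462 CPM. All 4 knockouts were above all 7 controls, as for 6.2% of all tested genes. Each control, however, had only 1 or 2 reads, and M390 had 3 reads against 2 in its batch control M386. With no filter the log2 fold change was 2.49 ± 0.95 (SE) and did not pass (edgeR adjusted p = 0.0975). The 11 endothelial and mural markers summed to 31.9 CPM in F371, the lowest knockout, and 142 in M456, the highest. Pdk4, the pyruvate dehydrogenase kinase gene that FoxO induces on fasting, likewise had too few reads to be tested. It had 20 reads in the 4 knockouts, all in M374 and M456, and 40 in the 7 controls. These totals take no account of depth or of the number of libraries. Scaled for depth, Pdk4 averaged 1.85 ± 2.65 CPM over the 4 knockouts, against 1.22 ± 0.84 over the 7 controls (SD). Fitted without the filter, its log2 fold change was 1.42 ± 0.91 (SE) and did not pass (edgeR adjusted p = 0.42).

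In the controls alone, M476, the shallowest of the 7 at 4087197 reads, was lowest for Bcl6, Cat, Sod2 and Ccng2 and highest for Cdkn1b and Irs2. M386 of batch 2 was lowest for Trib1, Cdkn1b, Txnip and Irs2 and highest for Gadd45a, Sod2 and Ccng2.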
